A study of Homo sapiens with 6 samples.

Results

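The genes described here are 26 genes of cholesterol synthesis and sterol control, chosen by name from the 58735 genes of the expression table. They comprise 8 enzymes from acetoacetyl-CoA to farnesyl and geranylgeranyl diphosphate, 12 enzymes from squalene to cholesterol, and 6 genes that sense, control or carry sterols. All 26 were expressed above the level set for testing. Expression was measured by RNA-seq in HCT116, an established human colorectal carcinoma line, in 3 libraries of control-transfected cells (CTR) and 3 libraries of cells given 50 nM of a miR-8485 mimic. The methods give 48 h after transfection as the usual time of collection. Both groups came from the same line, and the methods name DMRIE-C as the reagent that carried the mimic into the cells. The labels give the CTR libraries the genotype WT and the others the genotype miR-8485 mimics. What the control transfection contained is not given in the sources used here. The replicates are described as independent biological replicates.

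Cholesterol is built from acetyl-CoA. The mevalonate steps make isoprenoid diphosphates, farnesyl diphosphate is joined to squalene, and squalene is cyclised to lanosterol, which is trimmed to cholesterol. Most enzymes of the route are transcriptional targets of SREBP2 (SREBF2), while SREBP1 (SREBF1) mainly drives fatty acid synthesis. Both are held in the endoplasmic reticulum by SCAP and the INSIG proteins when sterols are plentiful, and SCAP escorts them to the Golgi for cleavage when sterols run low. INSIG1 is itself an SREBP target.

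The mimic is a short RNA that acts mainly through its seed, bases 2 to 8. It is shown because the sites in the members are read against it, with the seed in capitals.
miR-8485 mimic: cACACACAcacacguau
The seed pairs with TGTGTGT in an mRNA. Of the 26 members, 6 held this word in the 3′ UTR of the canonical GENCODE transcript (GRCh38), or 23.1%, beside 28.9% of the 10672 tested genes with a 3′ UTR. The sites are printed in DNA letters 5′ to 3′ with the copies in capitals and their genomic place before each.
CYP51A1 at chr7:92113213-92113221: ggcaattatTGTGTGTGTgaggatgga
HMGCS1 at chr5:43288618-43288624: ctttatggaaTGTGTGTttcctctatt
INSIG1 at chr7:155308869-155308875: tggtcacacgTGTGTGTatcaccagtg
INSIG2 at chr2:118108443-118108449: ttgattggcgTGTGTGTatatatggat
INSIG2 at chr2:118109614-118109620: tgtgcacacgTGTGTGTtggagtgagt
INSIG2 at chr2:118110544-118110550: aagggtcaacTGTGTGTggtatcggtg
SC5D at chr11:121308540-121308546: cataaggaaaTGTGTGTtgtaacaaat
SC5D at chr11:121311064-121311070: attacttttaTGTGTGTcttacctatt
SC5D at chr11:121312089-121312095: tgcatcacttTGTGTGTttttatattg
SREBF2 at chr22:41907150-41907156: gcctgcgtgtTGTGTGTatgtcctgtg
The CYP51A1 site holds 2 overlapping copies. The HMGCS1 site and all SC5D sites but the first lie outside the gene ends given in the deposited table, so the transcripts counted by the authors may not include them. The use of these 3′ UTRs in HCT116 cells was not measured.

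The libraries held 17473874 to 17888110 recovered fragments on listed genes in CTR and 17710376 to 18480047 in miR-8485. Members had between 79 and 6028 fragments in a library. Values are FPKM, fragments scaled to gene length and to library size, and fold changes are on the log2(FPKM + 0.1) scale, which understates the change of low genes. Of the 8 epithelial markers, 6 reached a mean of 1 FPKM. KRT8, KRT18, KRT19 and CLDN4 fell, CLDN7 rose, EPCAM was not past the threshold (135 to 130.3 FPKM, limma adjusted p = 0.55), and CDH17 and VIL1 were below 1 FPKM in every library. The summed level of the 8 markers ranged from 2720 to 2951 FPKM in CTR and from 1844 to 1935 FPKM in miR-8485. Of 10 blood, endothelial and stromal markers, 9 were below 1 FPKM in every library and DCN was at 0, while COL1A1 rose from 4.25 to 6.31 FPKM. The summed level of these 10 was 4.81 to 4.85 FPKM in CTR and 6.45 to 6.77 FPKM in miR-8485. The part of these shifts in the results was not tested. In bulk RNA, fewer cells of a type and less RNA per cell cannot be told apart.

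The comparison asked how transfection of the miR-8485 mimic changed expression. For the sterol genes the main direction was down, with exceptions that included neighbouring steps. In limma with Benjamini-Hochberg adjustment over 12349 genes, 14 of the 26 members were downregulated, 5 were upregulated and 7 were not past the threshold of 0.05. The downregulated share was 53.8%, beside 30.5% of all tested genes. The upregulated share was 19.2%, beside 29.1%. Genes called in either direction made up 59.6% of all tested genes. The libraries of the groups did not overlap for 20 members, beside 66.5% of all tested genes. The median log2 fold change was -0.27 over the members and -0.0041 over all tested genes, and the median absolute value was 0.52 against 0.33. Summed over the 26 genes, the level was 639, 622 and 615 FPKM in CTR and 536, 516 and 537 FPKM in miR-8485. Every miR-8485 library was thus below every CTR library in this sum.

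**Figure D1:**
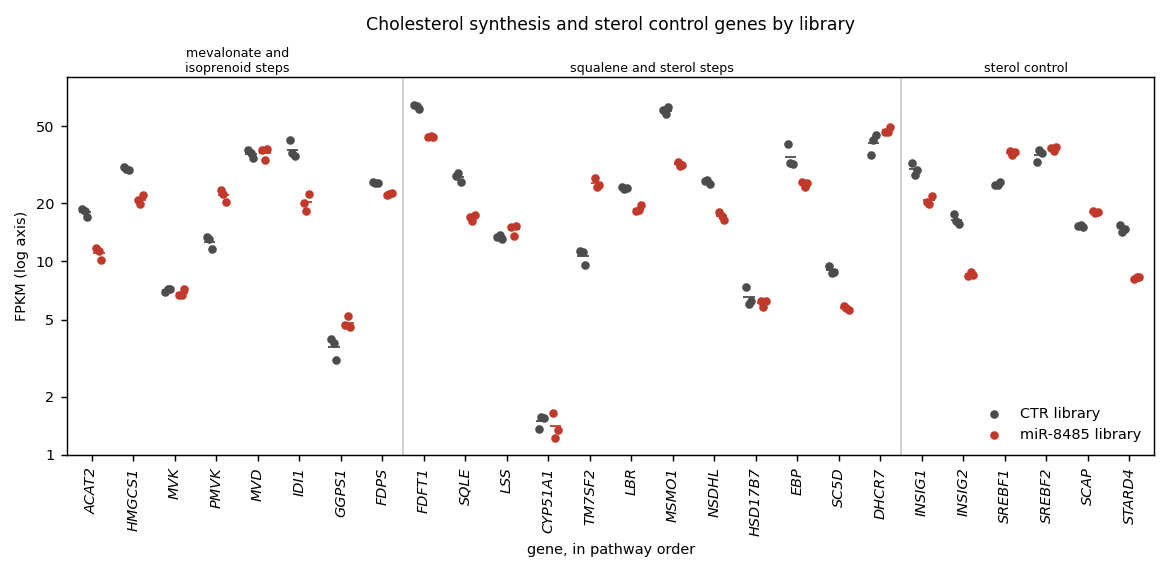
FPKM (log axis) of the 26 genes in pathway order, with 1 point per library, CTR in grey and miR-8485 in red, and a bar at each mean of 3 libraries. Genes such as MSMO1, IDI1 and STARD4 show separate groups with CTR above, TM7SF2 and PMVK show them with miR-8485 above, and CYP51A1 is the lowest gene.

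Of the 8 mevalonate and isoprenoid enzymes, 4 were downregulated, 2 were upregulated and 2 were not past the threshold. The first enzyme, ACAT2 (chr6:159760328-159779055, plus strand), which condenses acetyl-CoA to acetoacetyl-CoA in the cytosol, had 18.8, 18.2 and 16.98 FPKM in CTR and 11.8, 11.4 and 10.2 FPKM in miR-8485. It was lower in every miR-8485 library, with a log2 fold change of -0.69 (SE 0.07, limma adjusted p = 1.2e-04). ACAT2 overlaps TCP1 on the other strand, which is far higher and went from 118 to 90.5 FPKM. Whether the counting used strand is not given in the sources used here, so that fragments of this pair may not be told apart.

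HMGCS1 (chr5:43289395-43313512, minus strand) makes HMG-CoA, the substrate of the rate-limiting step. Its level was 30.7, 30.2 and 29.6 FPKM in CTR and 20.7, 19.7 and 21.96 FPKM in miR-8485, a fall of 31.1% between the means with no overlap of the libraries. The log2 fold change was -0.54 (SE 0.05, limma adjusted p = 1.0e-04). IDI1 (chr10:1039152-1049170, minus strand), which interconverts the isopentenyl and dimethylallyl diphosphates, had 42.3, 36.3 and 35.03 FPKM in CTR and 20.1, 18.2 and 22.2 FPKM in miR-8485. It fell in every miR-8485 library, with a log2 fold change of -0.91 (SE 0.09, limma adjusted p = 1.5e-04). FDPS (chr1:155308748-155320666, plus strand), which makes farnesyl diphosphate, fell by a small amount. Its libraries held 25.6, 25.4 and 25.3 FPKM in CTR and 22.01, 22.4 and 22.5 FPKM in miR-8485, which did not overlap. The log2 fold change of FDPS was -0.19 (SE 0.04, limma adjusted p = 0.0042) and became -0.30 after rescaling to TPM.

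None of the 3 phosphorylation and decarboxylation enzymes between HMG-CoA reduction and IDI1 was downregulated. PMVK (chr1:154924734-154936991, minus strand), the phosphomevalonate kinase, had 13.3, 13.000000 and 11.6 FPKM in CTR and 23.3, 22.2 and 20.3 FPKM in miR-8485. All miR-8485 libraries were above all CTR libraries, the ratio of the means was 1.74, and the log2 fold change was 0.79 (SE 0.07, limma adjusted p = 8.8e-05). MVK (chr12:109573255-109598117, plus strand), the mevalonate kinase that acts just before it, had 7.09 ± 0.134 (SD, n = 3) FPKM in CTR and 6.88 ± 0.278 (SD, n = 3) FPKM in miR-8485. The groups overlapped, and the 95% interval of its log2 fold change ran from -0.17 to 0.08 (limma adjusted p = 0.52). MVD (chr16:88651935-88663161, minus strand), the diphosphomevalonate decarboxylase, was also not past the threshold, at 36.02 ± 1.598 (SD, n = 3) FPKM in CTR and 36.5 ± 2.49 (SD, n = 3) FPKM in miR-8485, with an interval from -0.13 to 0.16 (limma adjusted p = 0.83). Fragment counts of MVK may be shared with MMAB, its neighbour on the other strand, which went from 2.44 to 3.64 FPKM.

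GGPS1 (chr1:235327350-235344532, plus strand), which makes geranylgeranyl diphosphate for protein prenylation rather than for sterols, was upregulated. Its values were low, 3.96, 3.79 and 3.08 FPKM in CTR and 4.68, 5.196 and 4.56 FPKM in miR-8485, and the groups did not overlap. The log2 fold change was 0.41 (SE 0.11, limma adjusted p = 0.012), from 212 to 272 fragments per CTR library and 320 to 358 per miR-8485 library. GGPS1 shares its interval with ARID4B on the other strand, which went from 3.11 to 2.44 FPKM, and with TBCE on the same strand. After rescaling to TPM, GGPS1 was not past the threshold (log2 fold change 0.30, limma adjusted p = 0.0501).

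Among the 12 squalene and sterol enzymes, 7 were downregulated, 1 was upregulated and 4 were not past the threshold. FDFT1 (chr8:11795573-11839309, plus strand), the squalene synthase that commits farnesyl diphosphate to sterols, was the highest member in CTR. It had 64.3, 63.5 and 61.7 FPKM in CTR and 44.1, 44.6 and 43.8 FPKM in miR-8485, and its log2 fold change was -0.51 (SE 0.04, limma adjusted p = 3.2e-05). SQLE (chr8:124998497-125022283, plus strand), the squalene epoxidase and a second control point of the route, had 27.8, 28.5 and 25.7 FPKM in CTR and 17.1, 16.2 and 17.4 FPKM in miR-8485. The groups were well apart, with a fall of 38.2% between the means and a log2 fold change of -0.69 (SE 0.06, limma adjusted p = 4.5e-05).

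The enzymes that make lanosterol and first modify it were not past the threshold. LSS (chr21:46188141-46228824, minus strand), which cyclises squalene epoxide to lanosterol, had 13.3, 13.7 and 13.03 FPKM in CTR and 15.1, 13.5 and 15.3 FPKM in miR-8485. The groups overlapped and the interval of its log2 fold change ran from -0.01 to 0.27 (limma adjusted p = 0.097). Without miR-8485 replicate 2 it was past the threshold, with a log2 fold change of 0.19 (limma adjusted p = 0.0283). CYP51A1 (chr7:92112151-92134803, minus strand), the lanosterol demethylase, was the lowest member by far, at 1.497 ± 0.118 (SD, n = 3) FPKM in CTR and 1.404 ± 0.2195 (SD, n = 3) FPKM in miR-8485. These values rest on 79 to 106 fragments per library, and the interval from -0.46 to 0.27 leaves room for a change of either sign (limma adjusted p = 0.63). The table lists 2 other protein-coding gene models on the same strand over CYP51A1, both at 0 in every library. How fragments in shared exons were assigned is not given in the sources used here.

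The next reduction can be carried out by either of 2 related proteins, and these changed in opposite directions. TM7SF2 (chr11:65111845-65116384, plus strand) had 11.3, 11.2 and 9.57 FPKM in CTR and 26.9, 24.4 and 24.9 FPKM in miR-8485. It rose most of all members, with a ratio of the means of 2.38 and a log2 fold change of 1.25 (SE 0.08, limma adjusted p = 1.4e-05), higher than 97.9% of the tested genes. LBR (chr1:225401502-225428925, minus strand), which is also the lamin B receptor of the inner nuclear membrane, had 24.3, 23.8 and 24.1 FPKM in CTR and 18.3, 18.3 and 19.6 FPKM in miR-8485. LBR was thus lower in each miR-8485 library, with a log2 fold change of -0.36 (SE 0.05, limma adjusted p = 4.5e-04). In CTR the mean FPKM of LBR was above that of TM7SF2 (24.03 against 10.7), and in miR-8485 it was below (18.8 against 25.4). TM7SF2 overlaps VPS51 on the same strand, which went from 19.4 to 29.8 FPKM, and the part of this overlap in the rise of TM7SF2 was not tested.

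The demethylation steps at the methylsterols fell where they passed the test. MSMO1 (chr4:165327623-165343160, plus strand), the methylsterol monooxygenase, had 60.6, 57.6 and 62.5 FPKM in CTR and 32.7, 31.1 and 31.5 FPKM in miR-8485. The fall was 47.3% between the means, with a log2 fold change of -0.92 (SE 0.05, limma adjusted p = 7.2e-06). NSDHL (chrX:152830967-152869729, plus strand), the dehydrogenase that acts next, had 25.9, 26.3 and 25.2 FPKM in CTR and 18.1, 17.1 and 16.5 FPKM in miR-8485, also without overlap, and its log2 fold change was -0.58 (SE 0.05, limma adjusted p = 5.8e-05). HSD17B7 (chr1:162790702-162812817, plus strand), the reductase that completes this cycle, had 6.53 ± 0.729 (SD, n = 3) FPKM in CTR and 6.09 ± 0.246 (SD, n = 3) FPKM in miR-8485 with overlapping groups (interval -0.29 to 0.11, limma adjusted p = 0.37). A close copy, HSD17B7P2, was listed at 1.73 FPKM in CTR and 2.62 FPKM in miR-8485, so that fragments of HSD17B7 may have been split.

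Of the last 3 enzymes, EBP and SC5D fell and DHCR7 was near the threshold in the other direction. EBP (chrX:48521158-48528716, plus strand), the sterol isomerase, had 40.4, 32.2 and 31.7 FPKM in CTR, where replicate 1 was highest, and 25.8, 24.2 and 25.4 FPKM in miR-8485. Its log2 fold change was -0.46 (SE 0.09, limma adjusted p = 0.0039). SC5D (chr11:121292453-121308694, plus strand), the sterol desaturase, had 9.496, 8.66 and 8.77 FPKM in CTR and 5.902, 5.77 and 5.57 FPKM in miR-8485, with a log2 change of -0.63 (SE 0.06, limma adjusted p = 8.1e-05). DHCR7 (chr11:71428193-71452868, minus strand), which reduces dehydrocholesterol to cholesterol, had 35.6, 42.6 and 44.96 FPKM in CTR and 46.5, 46.5 and 49.6 FPKM in miR-8485. Every miR-8485 library was above every CTR library, but CTR replicate 1 was low and the log2 fold change of 0.22 (SE 0.09) was not past the threshold (limma adjusted p = 0.06). Without CTR replicate 3 it was (log2 fold change 0.29, limma adjusted p = 0.0275), as in 4 other alternatives. The log2 fold change was 0.12 without CTR replicate 1 (limma adjusted p = 0.0735) and 0.10 after rescaling to TPM (limma adjusted p = 0.31). An antisense gene over DHCR7, AP002387.1, went from 10.6 to 22.4 FPKM.

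**Figure D2:**
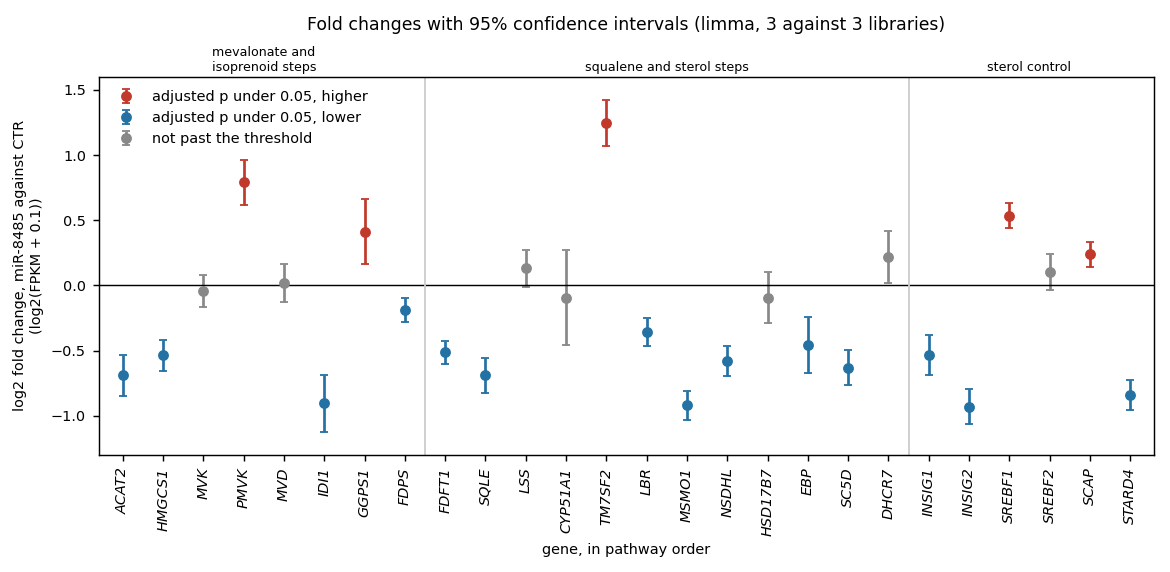
log2 fold change of miR-8485 against CTR for the 26 genes in pathway order, with 95% confidence intervals from limma (3 against 3 libraries), blue for downregulated, red for upregulated and grey for genes not past the threshold. The intervals of IDI1, MSMO1, INSIG2 and STARD4 lie lowest, and that of TM7SF2 lies highest, at 1.07 to 1.42.

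Of the 6 sterol control genes, 3 were downregulated and 2 were upregulated, and SREBF2 was not past the threshold. The mRNAs of both retention proteins fell. INSIG1 (chr7:155297776-155310235, plus strand) had 32.4, 27.97 and 29.7 FPKM in CTR and 20.4, 19.9 and 21.7 FPKM in miR-8485, with a log2 change of -0.54 (SE 0.06, limma adjusted p = 3.1e-04). INSIG2 (chr2:118088452-118110997, plus strand), which is not driven by SREBP in the same way, had 17.6, 16.1 and 15.6 FPKM in CTR and 8.39, 8.78 and 8.53 FPKM in miR-8485. Its fall of 47.9% between the means was close to those of MSMO1 and IDI1, and the order of these 3 genes changed between alternatives. INSIG2 had a log2 fold change of -0.93 (SE 0.06, limma adjusted p = 1.6e-05), and its 3′ UTR holds the 3 separate seed sites printed above. STARD4 (chr5:111496033-111512590, minus strand), a carrier of cholesterol between membranes and an SREBP target, had 15.5, 14.2 and 14.8 FPKM in CTR and 8.13, 8.31 and 8.28 FPKM in miR-8485, with a log2 fold change of -0.84 (SE 0.05, limma adjusted p = 1.3e-05). Its 3′ UTR holds no copy of TGTGTGT.

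Neither the factors nor their escort was downregulated. SREBF1 (chr17:17810399-17837002, minus strand) had 24.9, 24.9 and 25.7 FPKM in CTR and 37.03, 35.5 and 37.001 FPKM in miR-8485, so that every miR-8485 library was higher. The ratio of the means was 1.45 and the log2 fold change 0.53 (SE 0.04, limma adjusted p = 3.8e-05). SREBF2 (chr22:41833079-41907308, plus strand) had 32.8, 37.7 and 36.2 FPKM in CTR and 38.4, 37.04 and 38.9 FPKM in miR-8485, with overlapping groups and an interval of the log2 fold change from -0.04 to 0.24 (limma adjusted p = 0.17). SCAP (chr3:47413694-47477126, minus strand) had 15.2, 15.4 and 15.1 FPKM in CTR and 18.1, 17.7 and 18.1 FPKM in miR-8485, with a log2 change of 0.24 (SE 0.04, limma adjusted p = 0.0018). After rescaling to TPM, which moves the median over every tested gene to -0.12, SCAP was not past the threshold (0.12, limma adjusted p = 0.0707). These are mRNA levels, and the cleaved, active forms of the SREBP proteins were not measured. SREBF1 overlaps RAI1 on the other strand, which went from 6.78 to 5.70 FPKM. MIR33A, the microRNA gene within SREBF2, was at 0 in every library, and MIR33B, within SREBF1, went from 0.962 to 2.09 FPKM. Both genes are short, at 69 and 96 bases, and the levels of the mature microRNAs were not tested.

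**Figure D3:**
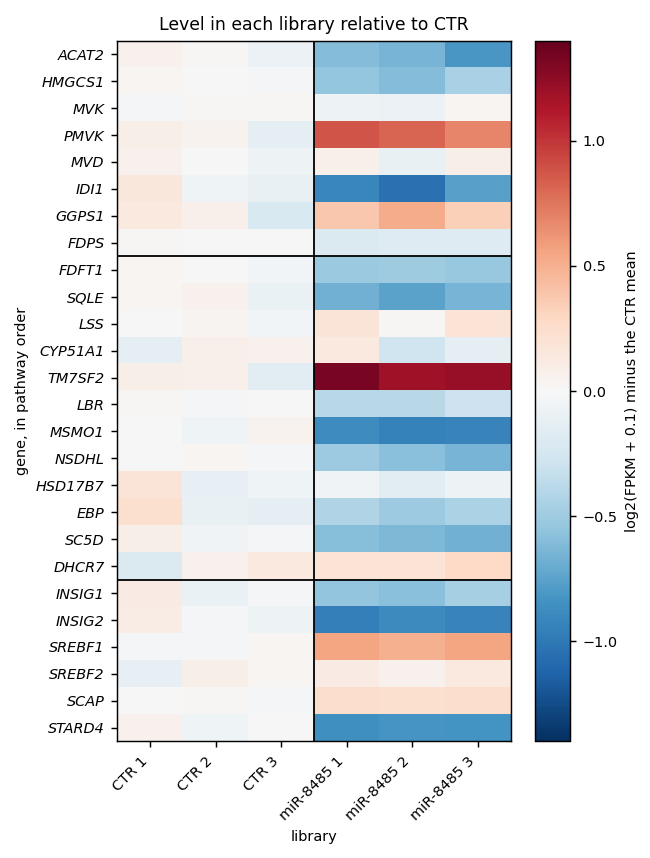
log2(FPKM + 0.1) of each gene in each of the 6 libraries minus its mean over the 3 CTR libraries, from blue (lower) to red (higher), with lines between the roles and between the groups. The 3 miR-8485 libraries have similar colours within a gene, and the median over the 26 genes is -0.30, -0.33 and -0.23 in them.

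The replicates were close for these genes. The SD of log2(FPKM + 0.1) within a group had a median of 0.0709 over the members, beside 0.0992 over all tested genes, and the members ranged from 0.0131 to 0.165. Relative to the CTR mean, the median over the 26 genes was 0.026, 0.0091 and -0.032 for the CTR libraries, in replicate order, and -0.30, -0.33 and -0.23 for the miR-8485 libraries. The same median over all tested genes stayed between -0.0054 and 0.0049 in all 6 libraries. All 14 downregulated members kept their direction and their call in each of the 18 alternatives, and PMVK, TM7SF2 and SREBF1 kept theirs among the upregulated.

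The downregulated members had a lower median GC content than the upregulated ones, with overlapping ranges. The GC content of the canonical transcript ranged from 34.4% to 55.0% in the 14 downregulated members, with a median of 41.9%, and from 40.4% to 63.2% in the 5 upregulated members, with a median of 61.7%. Across the 26 genes, which share all 6 libraries, Pearson's r between GC content and log2 fold change was 0.73, and Spearman's rho was 0.78. Across the 12298 tested genes with a known GC content, r was 0.13. The median log2 fold change was -0.138 in the lowest of 5 equal bins of GC content and 0.143 in the highest. With this trend removed in each library, a step added after the data were seen, the 14 downregulated and 5 upregulated members had the same calls. In that fit, the log2 fold change of LBR was -0.22 in place of -0.36, that of SCAP was 0.13 in place of 0.24, and MVD was past the threshold at -0.17 (limma adjusted p = 0.022).

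**Figure D4:**
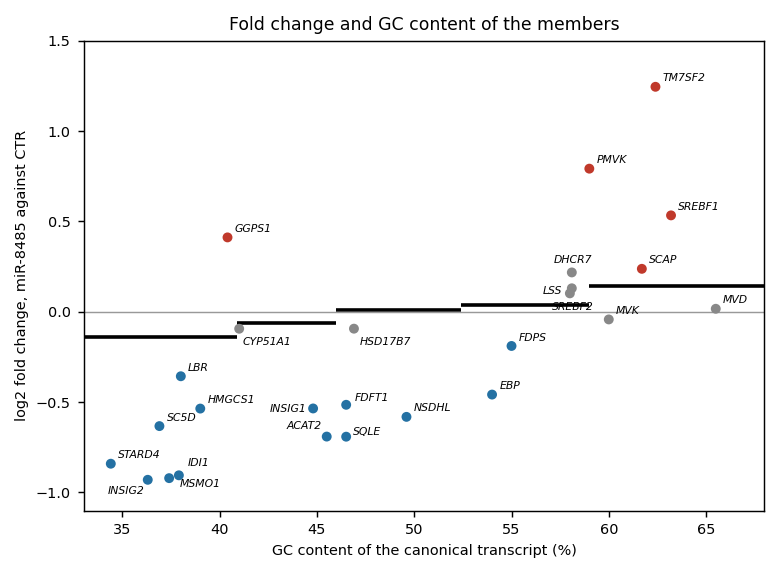
log2 fold change of the 26 genes against the GC content of the canonical transcript in percent, coloured by call, with black bars at the median over every tested gene in each of 5 bins of GC content. The bars are medians over many genes and run from -0.138 to 0.143. Most downregulated members, single genes selected by their fall, lie between -0.36 and -0.93.

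Of the 14 downregulated members, 4 (HMGCS1, INSIG1, INSIG2 and SC5D) held TGTGTGT in the canonical 3′ UTR, or 28.6%, beside 28.9% of all tested genes with a 3′ UTR. Of the 7 members that were not past the threshold, CYP51A1 and SREBF2 held it, and none of the 5 upregulated members did. The median log2 fold change was -0.535 in the 6 members with a site and -0.141 in the 20 without. Over all tested genes it was -0.156 in the 3085 genes with the word and 0.019 in the 7587 without. Among the 14 downregulated members alone it was -0.584 in the 4 with a site and -0.636 in the 10 without. These 14 were selected by their fall in the same data, so this last split cannot show the part of the sites, which was not tested. The longest annotated 3′ UTR of each member gave the same 6 genes with a site.

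Promoters were searched because the members share a known regulator. RefSeq promoter sequences (GRCh38.p14, around each gene's start) were given for 23 of the 26 members, and ACAT2, FDFT1 and SQLE were not among them. The searched words, on both strands, were TCACNCCAC, the core of the sterol regulatory element bound by SREBP, its variant TCACNCGAC, CCAAT, the box of the cofactor NF-Y, and GGGCGG, the box of SP1. The core or its variant was found in 3 of the 23 members, or 13%, beside 2.01% of the 8766 tested genes with a promoter in the set. These windows are printed with the matched word in capitals, since they are the members in which the element was found.
SREBF2 at chr22:41832942-41833010, plus strand: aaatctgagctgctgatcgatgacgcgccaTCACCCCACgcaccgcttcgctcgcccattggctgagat
FDPS at chr1:155308696-155308764, plus strand: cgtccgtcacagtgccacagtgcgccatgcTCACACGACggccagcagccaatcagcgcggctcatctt
HSD17B7 at chr1:162790574-162790642, plus strand: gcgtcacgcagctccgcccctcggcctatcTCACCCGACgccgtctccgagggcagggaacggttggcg
The match begins 133, 140 and 98 bases before the start, in this order. FDPS fell, while SREBF2 and HSD17B7 were not past the threshold. CCAAT was found in 17 of the 23 members, or 73.9%, beside 43.4% of the tested genes, in 9 of 11 downregulated members, 2 of 5 upregulated and 6 of 7 that were not past the threshold. GGGCGG was found in 21 of the 23, or 91.3%, beside 79.3%. A match is a description of the letters and not a bound site. Degenerate forms of the element and sequence beyond the given promoters were not searched.

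A list of 14 genes for SREBP cleavage and sterol-regulated degradation was examined beside the members. Of these, 10 were downregulated (71.4%, beside 30.5% of all tested genes) and 3 were upregulated (21.4%, beside 29.1%), and the median log2 fold change was -0.33. RNF145, RNF139 and FAF2, which act in degradation at the endoplasmic reticulum, had log2 fold changes of -0.49, -0.48 and -0.46 (limma adjusted p = 1.9e-04, 4.2e-04 and 8.3e-04). MBTPS1, the first protease of SREBP cleavage, rose from 15.5 to 22.5 FPKM (log2 fold change 0.54, limma adjusted p = 1.1e-04), and MBTPS2, the protease that follows it, fell from 3.696 to 2.87 FPKM (log2 fold change -0.35, limma adjusted p = 0.024). ERLIN2 rose by 0.78 on the log2 scale, while ERLIN1, the partner of ERLIN2, fell from 13.3 to 9.68 FPKM.

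Many genes of fatty acid synthesis are SREBP1 targets. Of 19 such genes, 6 were downregulated (31.6%, beside 30.5% of all tested genes), 4 were upregulated (21.1%, beside 29.1%) and 9 were not past the threshold, so that the downregulated share was near that of all genes, with a median log2 fold change of -0.057. ELOVL6, which elongates palmitate, had 9.57, 10.9 and 10.1 FPKM in CTR and 3.197, 3.18 and 3.48 FPKM in miR-8485. It fell further than any of the 26 members, with a log2 fold change of -1.60 (SE 0.07, limma adjusted p = 4.0e-06). ACSL3 and ACSS2, which activate fatty acids and acetate, fell by 0.82 and 0.43 on the log2 scale. FASN, the fatty acid synthase, was at 137 ± 11.1 (SD, n = 3) FPKM in CTR and 144 ± 2.66 (SD, n = 3) FPKM in miR-8485, with an interval of its log2 fold change from -0.07 to 0.22 (limma adjusted p = 0.35). MID1IP1, SLC25A1 and FADS1 rose, with log2 fold changes of 0.72, 0.58 and 0.45 (limma adjusted p = 1.3e-05, 1.9e-05 and 8.0e-04).

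Genes of sterol uptake and transport changed in both directions. Of 16 genes, 14 were tested, 8 were upregulated (57.1%, beside 29.1% of all tested genes) and 5 downregulated (35.7%, beside 30.5%), and the median log2 fold change was 0.19. The rises were small. OSBPL5, GRAMD1C and MYLIP had log2 fold changes of 0.49, 0.39 and 0.37, and after rescaling to TPM 3 of the 14 genes were upregulated. The falls included deep ones. SCARB1, a receptor for high-density lipoprotein, had 27.3, 28.9 and 30.2 FPKM in CTR and 9.39, 8.599 and 9.01 FPKM in miR-8485 (log2 fold change -1.67, SE 0.06, limma adjusted p = 2.2e-06). OSBPL9, an oxysterol-binding protein family member, had 6.87, 6.77 and 6.73 FPKM in CTR and 1.71, 2.14 and 1.76 FPKM in miR-8485 (log2 fold change -1.81, SE 0.09, limma adjusted p = 7.7e-06). Neither gene holds TGTGTGT in its canonical 3′ UTR. OSBPL2 fell by 0.34. The count of downregulated genes was 3 without CTR replicate 1, without CTR replicate 3 or without miR-8485 replicate 2.

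Of the genes of cholesterol ester turnover, SOAT1 and NCEH1 fell, and LIPA, the lysosomal ester hydrolase counted in the uptake list, rose from 11.95 to 13.6 FPKM (log2 fold change 0.19, limma adjusted p = 0.026). SOAT1, which esterifies cholesterol, had 9.06, 8.397 and 8.65 FPKM in CTR and 4.44, 4.59 and 4.92 FPKM in miR-8485, with a log2 change of -0.89 (SE 0.06, limma adjusted p = 2.4e-05). NCEH1, which hydrolyses the esters, had 9.56, 9.59 and 9.11 FPKM in CTR and 2.83, 2.74 and 2.68 FPKM in miR-8485, with a log2 change of -1.74 (SE 0.06, limma adjusted p = 2.2e-06). Both hold seed sites in the canonical 3′ UTR, 3 copies of TGTGTGT in SOAT1 and 2 in NCEH1. Of the other called genes named from the related lists, NUS1 fell and holds 4 copies, and ACSL3 fell and holds 2. ELOVL6, OSBPL2 and FAF2 fell and hold 1 copy each. RNF145, RNF139, MBTPS2, ERLIN1, ACSS2, SCARB1, OSBPL9, NR1H3, PDSS1 and RABGGTB fell and hold none. ERLIN2, SLC25A1, FADS1 and GRAMD1C rose and hold 1 copy each. MBTPS1, MID1IP1, OSBPL5, MYLIP, LIPA, NR1H2, RXRB, PDSS2, SRD5A3 and ICMT rose and hold none. The part of the sites in these changes was not tested. SOAT1 and NCEH1 belong to a list of 15 efflux and ester genes, of which 8 were tested. Of these, 3 were downregulated (37.5%, beside 30.5% of all tested genes) and 2 upregulated (25%, beside 29.1%), with a median log2 fold change of -0.11. The other downregulated gene was NR1H3, an LXR sterol receptor, at -0.40, while its sister NR1H2 and the partner receptor RXRB rose by 0.53 and 0.85. Without CTR replicate 1, the downregulated genes numbered 5. The LXR target ABCA1, which exports cholesterol, was below 1 FPKM in every library and was not tested. Its mean was 0.088 FPKM in CTR and 0.21 FPKM in miR-8485, from 16 to 20 and 34 to 49 fragments per library.

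The isoprenoids made in the mevalonate steps feed other branches. Of 17 genes of protein prenylation, dolichol and ubiquinone synthesis, 6 were downregulated (35.3%) and 4 were upregulated (23.5%), shares near the 30.5% and 29.1% of all tested genes, with a median log2 fold change of -0.047. NUS1, a subunit of the dolichol-forming prenyltransferase, fell from 19.1 to 10.7 FPKM (log2 fold change -0.83, limma adjusted p = 1.9e-05) and its 3′ UTR holds 4 copies of TGTGTGT. PDSS1 and PDSS2, the partner subunits that build the ubiquinone tail, changed in opposite directions, with log2 fold changes of -0.62 and 0.45 (limma adjusted p = 2.2e-04 and 0.0011). RABGGTB, the beta subunit that prenylates RAB proteins, fell by 0.46, while SRD5A3 and ICMT rose by 0.64 and 0.34.

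**Figure D5:**
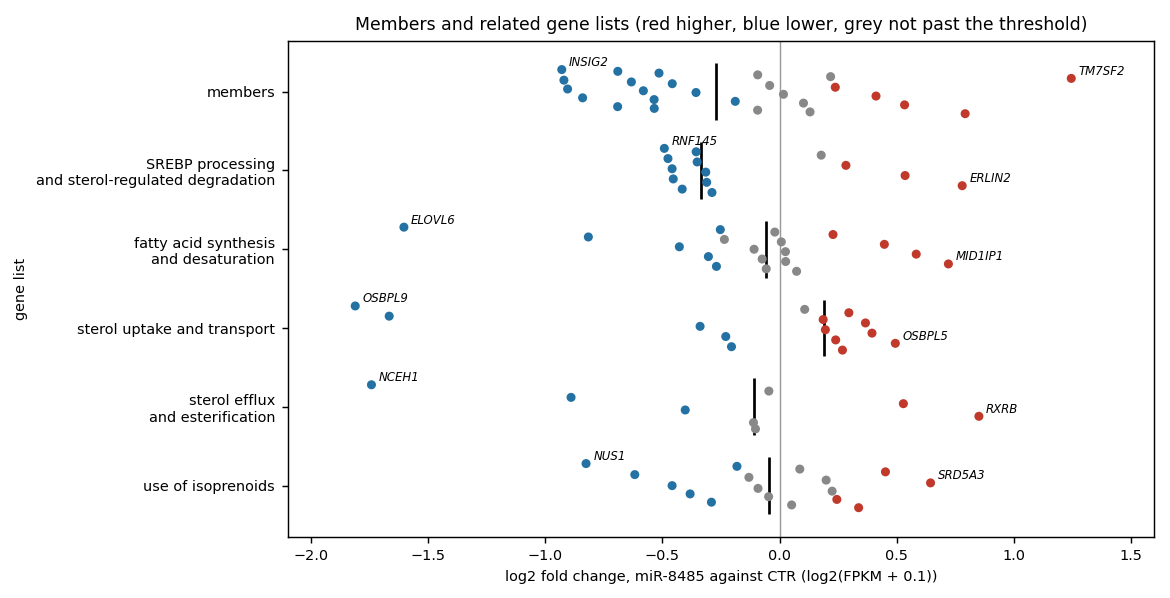
log2 fold change of the 26 members and of the tested genes of 5 related lists, with 1 point per gene, red for upregulated, blue for downregulated and grey for not past the threshold, a black bar at each list's median and the lowest and highest gene named. The medians run from -0.33 for SREBP processing to 0.19 for sterol uptake and transport, and OSBPL9, NCEH1 and ELOVL6 lie below every member.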

How the data were processed

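RNA-seq was performed on 6 libraries, 3 per group, mapped to groups by the sample titles. According to the methods and the submitters' processing notes, reads were trimmed with fastp, aligned to hg38 by HISAT2 2.0.5, assigned to genes by featureCounts 1.5.0-p3 and expressed by the authors as FPKM, the unit of the deposited table. The strand setting and the annotation release are not given in the sources used here. In all libraries 100% of values above 0 were whole fragments (within 0.05) once length and library total were divided out, so fragments were recovered. The chi-square per gene between replicates was 2.89 to 12.5, and 75.5 to 86.7 between groups, and no library was merged with another. The highest values between replicates, 12.5 and 9.97, were those of CTR replicate 1, and the others reached at most 4.31.

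The table holds FPKM and not counts, so log2(FPKM + 0.1) was tested with limma 3.58.1 (R 4.3.3, two-sided, trended prior variance). Genes averaging 1 FPKM or more across the 6 libraries entered, 12349 in all, and Benjamini-Hochberg adjustment ran over the whole set. The method was tested on simulated data, in which far fewer genes changed than were called here. The 26 members and the related lists were chosen with earlier results of these data known. Named beyond the members were up to 3 genes per related list with the largest rise and fall among called genes without overlap, and a few partners of members (MBTPS2, ERLIN1, FASN, LIPA and ABCA1) chosen after their values were seen. Some genes that this rule would name are not reported here. Canonical transcripts, GC content and 3′ UTRs came from GENCODE release 44 on GRCh38. All 26 members overlapped their GENCODE gene, and 13 had the same ends. Python 3.11.15 was used for sequences. Alternatives were other pseudocounts, filters and scalings, limma without the trend, a replicate block, each library left out, voom on recovered fragments and, added later, removal of the GC trend. For human sequence, only reference sequence and the mimic are printed.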

Additional observations from a re-analysis of the deposited data

How the results depend on the processing

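Over 18 alternatives, 455 of 466 pairs of a member and an alternative kept their side of the threshold. Called genes among them also kept their direction. Uncalled genes were counted as kept even where the sign changed. MVD (-0.099) and SREBF2 (-0.013) did so after rescaling to TPM, and CYP51A1 (0.0047) with the GC trend removed. MVD also turned negative without CTR replicate 3 (-0.018), without miR-8485 replicate 1 (-0.0091) and without miR-8485 replicate 3 (-0.015). Of the other pairs, 2 lost the call (GGPS1 and SCAP after rescaling to TPM) and 8 gained it (LSS in 3 alternatives, DHCR7 in 5). The last 1, MVD with the GC trend removed (-0.17), reversed and was called. The cause was not tested. Downregulated members numbered 14 or 15 and upregulated members 3 to 7, with 3 after rescaling to TPM. The members' median of -0.27 became -0.41 with a filter at a mean of 5 FPKM, which leaves 24 members, -0.39 after rescaling to TPM and -0.22 with the GC trend removed. Rescaling to TPM gave 2613 upregulated and 4725 downregulated genes in all, 35.6% upregulated against 48.8%. With each library left out, members stayed at 5 to 6 upregulated and 14 downregulated with a median of -0.29 to -0.26, all genes at 3124 to 3561 upregulated and 3382 to 3663 downregulated, sterol uptake and transport at 3 to 5 downregulated and efflux and esterification at 3 to 5 downregulated. The filter at 5 FPKM gave 2303 upregulated and 2417 downregulated genes, 1 upregulated gene of SREBP processing and 3 downregulated genes of sterol uptake and transport. The latter also had 3 downregulated genes without a filter and 3 upregulated genes after rescaling to TPM.

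The labels do not say whether same-numbered libraries were paired. Correlations of their deviations from the group means were 0.067, 0.034 and -0.064, which cannot settle it with 3 libraries per group. With the replicate block, 3634 genes were upregulated and 3754 downregulated, with 6 upregulated members (DHCR7 added, 0.22, adjusted p = 0.0275) and 14 downregulated. Depth limits the lowest member, CYP51A1, to 79 to 106 fragments per library.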

Other observations

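Levels also differed in order between the groups. MSMO1 was the enzyme with the second highest mean FPKM in CTR (60.2), after FDFT1 (63.2). In miR-8485, DHCR7 had the highest mean (47.6), above FDFT1 (44.2), while MSMO1 (31.8) lay below SREBF2, MVD and SREBF1. The 20 enzymes together made up 0.143% to 0.155% of all FPKM in CTR and 0.108% to 0.115% in miR-8485. Fragments on mitochondrial genes were 7.94% to 10.2% of a CTR library and 10.6% to 11.3% of a miR-8485 library, and their part in the sterol results was not tested.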
